A study of Sus scrofa with 85 samples.

Results

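Micro-endomyocardial biopsies (micro-EMB) from the infarcted, apical left ventricle at Day 14 were compared with those taken at Day 2, to ask which transcripts differ between the early and the late phase of repair. The libraries used were those with at least 1000000 counts and with 7 to 60% of the counts in their 10 most counted genes. These were 11 of the 18 libraries sequenced from this region at both times and 11 of 85 in the whole series. They were 4 of 9 at Day 2 and 7 of 9 at Day 14.

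All libraries came from 3 female farm pigs of mixed Yorkshire-Swedish breed, named here by swine number. A balloon closed the distal left anterior descending coronary artery of every animal and was then deflated, so both groups carry a reperfused infarct and no animal went without one. Baseline biopsies were taken before the balloon was placed and, per the paper, were not aimed at a particular region. Their labels read apical, so they are counted here among the infarcted-region libraries. The ages of the animals are not given in the sources used here, and the catheter was aimed at a region, so single biopsies can miss the scar. At Day 2 there was 1 library of swine 1644, 2 of swine 1640 and 1 of swine 5385. At Day 14 there were 2 of swine 1640, 2 of swine 1644 and 3 of swine 5385. Biopsies were the unit of the tests, so p-values measure the spread between biopsies, several of which share an animal.

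After an infarct, dead muscle is cleared by infiltrating leukocytes while fibroblasts, endothelial cells and macrophages divide and lay down a provisional matrix rich in tenascin C, fibronectin and osteopontin. In the later phase cell division ebbs, vessels are pruned and the provisional matrix gives way to cross-linked fibrillar collagen. Cells of the heart also run a circadian clock, a loop in which the activators BMAL1 and CLOCK switch on their own repressors, the period, cryptochrome and REV-ERB genes.

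The total count per library was 3832952 to 10307217 at Day 2 and 6868986 to 14434740 at Day 14. A pair of libraries stood apart from the others. Cardiomyocyte markers (10 genes such as TNNT2 and MYBPC3) were summed in CPM, counts scaled to equal library totals. The sums were 159.9 in the Day 2 library of swine 5385 and 406 in 1 Day 14 library of swine 1644. They were 13899 to 31373 in the other 9, so these 2 biopsies held little heart muscle RNA against their label. They are also the libraries of both groups that are not in the study's table of cell type proportions, and the values of the genes and lists below are given with and without them, other than those set against baseline or the non-infarcted region. One of the 4 baseline libraries, of swine 1644, was as low, at 153.6 CPM.

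**Figure D1:**
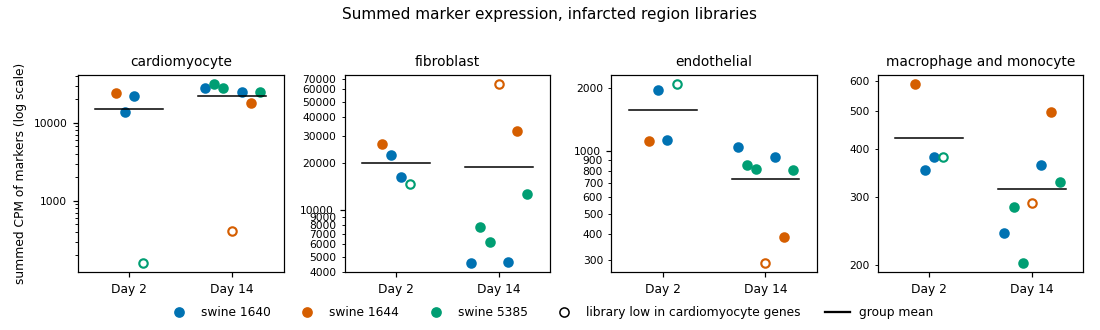
Summed CPM (log axes) of the marker lists of 4 cell types in each infarcted-region library of Day 2 and Day 14. Points are libraries coloured by swine, open points are the 2 libraries low in cardiomyocyte genes and lines are group means. The endothelial sum is lower in each of the 7 Day 14 libraries than in each of the 4 Day 2 libraries, while the other sums overlap.

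Across the 17929 genes tested with edgeR, 1 gene passed an adjusted p of 0.05 (0.00558% of those tested) and none was higher at Day 14. A lower mean at Day 14 was found in 7340 genes (40.9%) and a higher one in 10589 (59.1%). At an unadjusted p under 0.05 there were 541 genes (3.02%), of which 389 had a lower mean at Day 14 (2.17% of those tested) and the rest a higher one (0.848%). In 100 genes (0.558%) all 7 Day 14 libraries lay below all 4 Day 2 libraries, and in 44 (0.245%) all lay above. Without the 2 libraries low in cardiomyocyte genes, no gene passed the adjusted threshold. Below p 0.05 were then 199 genes with a lower mean (1.13%) and 58 with a higher one (0.328%). These shares stand beside every list count below that leaves out the 2 libraries. With the swine as a block none passed. DESeq2 called 13 genes lower and 0 higher, and limma-voom with sample quality weights called 15 lower and 2 higher. Neither of these sets holds the gene called by edgeR. The genes below are therefore described by their values, and only the single gene called by edgeR is said to have changed.

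The called gene was ENSSSCG00000036779, which has no symbol in the name table used. Its levels at Day 2 were 4.23, 5.27, 4.38 and 10.42 log2 CPM (in the order swine 1644, both libraries of swine 1640, swine 5385, as in every list of Day 2 values here). At Day 14 they lay between 2.36 and 4.74 (median 3.41). It fell by 4.77 on the log2 scale (SE 0.82, adjusted p = 0.04995, edgeR). The call rests on single libraries. Without the 2 libraries low in cardiomyocyte genes the log2 fold change was -0.90 (p = 0.121), and the Day 2 libraries other than that of swine 5385 overlap with Day 14. It was also lost when any 1 of the 7 Day 14 libraries was left out (adjusted p = 0.0901 to 0.246, edgeR). Neither DESeq2 (log2 fold change -4.84) nor limma-voom with sample quality weights (-1.62) called this gene. In 1 of the alternative runs it was given no adjusted p, which was counted as not called.

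Genes of the circadian clock stood among those with the smallest p in both directions. BMAL1 (ENSSSCG00000013397, the activator of the loop, chr2:45895637-46025174 in Sscrofa11.1) was at 5.96, 6.58, 6.21 and 5.73 log2 CPM at Day 2. At Day 14 it lay between 3.88 and 5.02 (median 4.60). The groups did not overlap (log2 fold change -1.57, SE 0.32, p = 3.36e-05, adjusted p = 0.201), and without the 2 libraries the log2 fold change was -1.70 (p = 4.47e-05). Within swine 1640, 1644 and 5385 the Day 14 mean minus the Day 2 mean was -1.76, -1.62 and -1.11. DESeq2 and limma-voom with quality weights each called BMAL1 lower.

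The repressors of the loop had the opposite direction. PER1 (ENSSSCG00000017983, chr12:53361863-53376723) was at 5.57, 4.78, 4.87 and 4.39 log2 CPM at Day 2. At Day 14 it was between 5.88 and 8.01 (median 6.26), above every Day 2 library (log2 fold change 1.84, SE 0.51, p = 0.00114, adjusted p = 0.641). PER2 (ENSSSCG00000016338, chr15:137793419-137837854), its paralog, was at 4.59, 5.06, 3.93 and 4.74 and then between 5.36 and 7.67 (median 6.31), again without overlap (log2 fold change 1.78, SE 0.54, p = 0.00276, adjusted p = 0.857). NR1D1 (ENSSSCG00000036933, chr12:22263549-22274131), which encodes REV-ERB alpha, a repressor of BMAL1 transcription, was at 2.65, 2.29, 2.77 and 1.57 and then between 3.15 and 4.94 (median 3.62) (log2 fold change 1.63, SE 0.47, p = 0.00161, adjusted p = 0.687). Without the 2 libraries the log2 fold changes were 1.34 (p = 0.0156), 1.43 (p = 0.0124) and 1.53 (p = 0.00534) for PER1, PER2 and NR1D1. Each of these repressors had the higher Day 14 mean in all 3 swine.

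Of the 15 tested clock genes, a list drawn up after the first of them had been seen, 1 had a lower mean with an unadjusted p under 0.05 and 7 a higher one, beside 2.17% and 0.848% of all genes. None passed the adjusted threshold. The median log2 fold change of the list was 0.70, against 0.089 for all genes. The others with a higher mean and p under 0.05 were NR1D2 (REV-ERB beta, 1.03 (p = 0.0103)), the output factor DBP (1.63 (p = 0.0178)), the cryptochrome CRY2 (0.91 (p = 0.0277)) and the repressor BHLHE41 (1.34 (p = 0.0218)). Leaving out the 2 libraries gave 0.95 (p = 0.0188), 1.27 (p = 0.0762), 0.76 (p = 0.0924) and 1.06 (p = 0.0944). Of the list 1 was then below p 0.05 with a lower mean and 4 with a higher one, and the median was 0.41. The hours of the day at which the biopsies were taken are not given in the sources used here, and their part in these values was not tested.

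**Figure D2:**
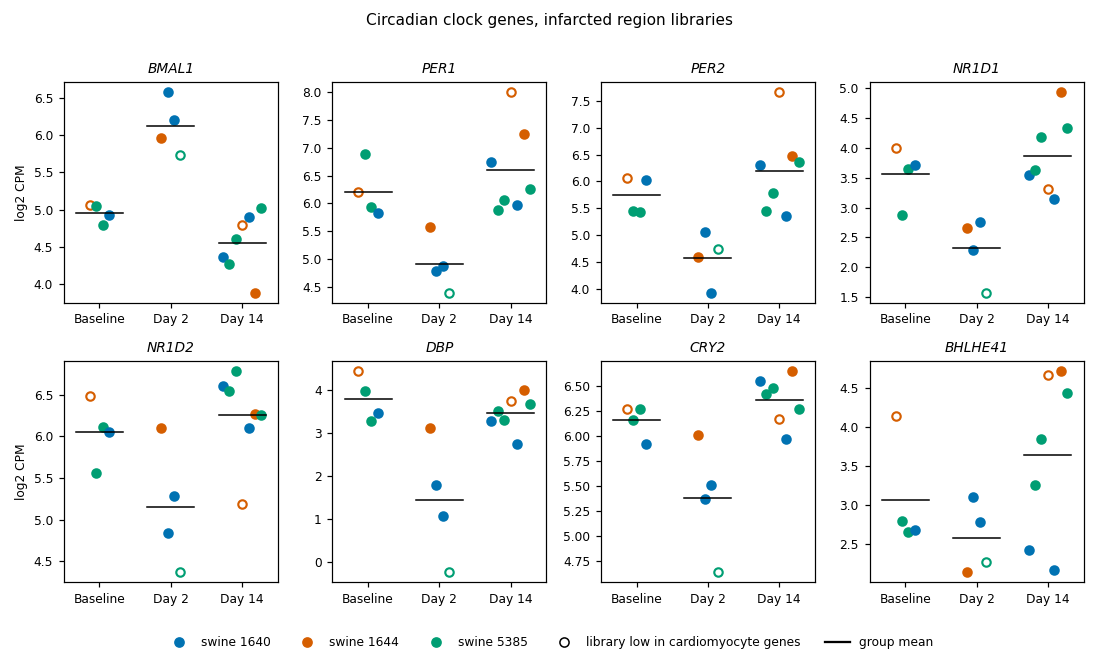
Log2 CPM of 8 clock genes in each baseline library labelled apical and each infarcted-region library of Day 2 and Day 14. Points are libraries coloured by swine, open points are libraries low in cardiomyocyte genes and lines are group means. BMAL1 is lower, and PER1, PER2 and NR1D1 are higher, in each Day 14 library than in each Day 2 library, and the baseline means of these 4 lie nearer to Day 14.

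The windows of 250 bases before the RefSeq starts of BMAL1 and PER1 are shown because these genes had the smallest p of the clock list in the lower and the higher direction, in Sscrofa11.1 and 5′ to 3′ along each gene, both on the minus strand. Capitals mark the E-box CACGTG, to which BMAL1 and CLOCK bind. The D-box TTANGTAA and the ROR element TAGGTCA were searched as well, on both strands.
BMAL1, chr2:46025175-46025424: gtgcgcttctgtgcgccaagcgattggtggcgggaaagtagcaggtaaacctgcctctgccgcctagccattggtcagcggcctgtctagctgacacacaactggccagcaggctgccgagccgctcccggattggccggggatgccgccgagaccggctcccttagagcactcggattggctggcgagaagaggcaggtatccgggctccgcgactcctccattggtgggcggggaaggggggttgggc
PER1, chr12:53376724-53376973: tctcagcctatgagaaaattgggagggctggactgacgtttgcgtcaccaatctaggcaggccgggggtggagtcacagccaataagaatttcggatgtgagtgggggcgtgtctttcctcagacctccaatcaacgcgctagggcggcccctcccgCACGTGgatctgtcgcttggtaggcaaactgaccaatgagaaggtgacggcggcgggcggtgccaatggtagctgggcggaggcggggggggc
The PER1 window holds 1 E-box, which starts 93 bases before the gene, and neither of the other motifs. The BMAL1, PER2 and NR1D1 windows hold none of the 3, and that of DBP holds 1 ROR element. Of 19556 windows before protein-coding genes, 6.39% hold an E-box, 1.7% a D-box and 2.58% a ROR element. A match describes letters only, and the windows do not reach introns or more distant sites.

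Genes of cell division had lower means at Day 14. Of the 24 tested proliferation genes, 23 had a lower mean (40.9% of all genes did), 15 with an unadjusted p under 0.05 (2.17% of all genes), and none passed the adjusted threshold. The list median was -1.14. Of the genes described here and in the next paragraph, MCM3, MCM5 and CENPF are members of the list. MYBL2, UHRF1, LMNB1, POLE and CDK2 are not, and were named for their small p. MYBL2 (ENSSSCG00000007366), a transcription factor of the cell cycle, was at 3.77, 4.46, 3.38 and 6.73 log2 CPM at Day 2. At Day 14 it was between 2.27 and 3.57 (median 2.82) (log2 fold change -2.41, SE 0.46, p = 1.38e-05, adjusted p = 0.124). The Day 2 library of swine 5385 was the highest and 1 Day 14 library overlapped with Day 2. UHRF1 (ENSSSCG00000013517), which maintains DNA methylation after replication, was at 4.61, 4.34, 4.53 and 6.92 and then between 1.97 and 3.92 (median 3.41) (log2 fold change -2.29, SE 0.49, p = 5.80e-05, adjusted p = 0.235). MCM3 (ENSSSCG00000025488), a subunit of the replicative helicase, was at 3.66, 3.93, 3.68 and 5.56 and then between 1.93 and 3.40 (median 2.75) (log2 fold change -1.66, SE 0.39, p = 0.000189, adjusted p = 0.383). Neither gene overlapped between the groups.

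Others of this kind were the nuclear lamina gene LMNB1 (-1.58 (p = 0.000187)), the DNA polymerase subunit POLE (-2.18 (p = 0.000232)), the cell cycle kinase CDK2 (-1.35 (p = 0.000486)), the helicase subunit MCM5 (-1.55 (p = 0.000703)) and the kinetochore gene CENPF (-1.62 (p = 0.00267)). The size of this pattern depended on the 2 libraries low in cardiomyocyte genes. Without them the median was -0.58, 21 of 24 genes still had a lower mean, and 1 was below p 0.05. Leaving out the Day 2 library of swine 5385 alone also left 1 of 24 below p 0.05 (0.848% of all genes). The log2 fold changes without both were -1.05 (p = 0.0122), -1.23 (p = 0.0188) and -1.03 (p = 0.0167) for MYBL2, UHRF1 and MCM3. LMNB1 and CDK2 were then -1.03 (p = 0.00847) and -1.15 (p = 0.00572). POLE was -0.92 (p = 0.104), MCM5 -0.76 (p = 0.0747) and CENPF -1.01 (p = 0.0840), none of them below p 0.05. In MYBL2, UHRF1 and MCM3 the Day 14 mean was below the Day 2 mean in all 3 swine.

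Endothelial markers were lower in Day 14 libraries as a group. All 10 tested had a lower mean (40.9% of all genes), 6 with an unadjusted p under 0.05 (2.17%), and in 3 the groups did not overlap (0.558%). Their summed level was 1115 to 2088 CPM at Day 2 and 290 to 1039 CPM at Day 14. In bulk biopsies, fewer cells of a type and less RNA per cell cannot be told apart. CLDN5 (ENSSSCG00000041667), a tight junction protein of endothelium, was at 4.20, 5.13, 3.52 and 5.64 log2 CPM at Day 2 and between 0.56 and 3.37 (median 2.83) at Day 14 (log2 fold change -2.21, SE 0.60, p = 0.00102, adjusted p = 0.624). PECAM1 (ENSSSCG00000017277), the adhesion molecule CD31, was at 8.69, 9.15, 8.17 and 9.75 and then between 5.54 and 8.16 (median 7.94) (log2 fold change -1.40, SE 0.45, p = 0.00428, adjusted p = 0.988). The list median was -1.11, and -0.65 without the 2 libraries, when 1 gene was below p 0.05. CLDN5 was then -1.67 (p = 0.0195) and PECAM1 -0.89 (p = 0.0553).

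Receptors of vessel growth had the same direction. Of 22 tested angiogenesis genes, 17 had a lower mean (40.9% of all genes), 7 with an unadjusted p under 0.05 (2.17%) and 4 without overlap between the groups (0.558%). Of the genes that follow, FLT4 and NRP2 are members of the list. CCL21 is from the list of cytokines and chemokines, and CALCRL and SMAD1 were named for their small p. FLT4 (ENSSSCG00000014007), the receptor VEGFR3 of lymphatic and sprouting endothelium, was at 6.00, 6.42, 5.07 and 4.94 log2 CPM at Day 2. At Day 14 it was between 2.34 and 4.47 (median 3.87) (log2 fold change -1.90, SE 0.53, p = 0.00119, adjusted p = 0.641), and without the 2 libraries the log2 fold change was -2.03 (p = 0.00322). CCL21 (ENSSSCG00000038162), a chemokine of lymphatic endothelium, was at 7.44, 6.99, 5.62 and 3.98 and then between 2.89 and 5.18 (median 4.40), with overlap through the Day 2 library of swine 5385 (log2 fold change -2.07, SE 0.58, p = 0.00128, adjusted p = 0.641). It was -2.49 (p = 0.000469) when the 2 libraries were left out. CALCRL, the adrenomedullin receptor, was -1.58 (p = 0.000164), the VEGF coreceptor NRP2 -1.11 (p = 0.000968) and SMAD1, a mediator of BMP signals, -1.02 (p = 0.000412) on the log2 fold change scale, and -1.30 (p = 0.00233), -1.03 (p = 0.00622) and -0.70 (p = 0.0105) without the 2 libraries. Without the 2 libraries 2 of 22 angiogenesis genes were below p 0.05, with a median of -0.48 against -0.59 with them.

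Genes of the provisional matrix and matricellular proteins had no common direction. Of 21 tested, 10 had a lower mean (40.9% of all genes) and 11 a higher one (59.1%), 3 and 2 of them with an unadjusted p under 0.05 (2.17% and 0.848%). The list median was 0.047, and -0.65 without the 2 libraries, when 3 had a lower and 0 a higher mean with p under 0.05. The lower 3 are described first. TNC (ENSSSCG00000005494), tenascin C, was at 7.28, 7.20, 8.57 and 9.11 log2 CPM at Day 2. At Day 14 it was between 3.34 and 8.18 (median 4.64) (log2 fold change -2.24, SE 0.82, p = 0.0109, adjusted p = 1.000), and the library of swine 1644 low in cardiomyocyte genes was the highest of that group. Leaving out the 2 libraries gave a log2 fold change of -3.004 (p = 0.000678). SPP1 (ENSSSCG00000009216), osteopontin, was at 1.78, 2.49, 5.03 and 2.66 and then between 0.21 and 2.58 (median 0.43) (log2 fold change -2.50, SE 0.80, p = 0.00413, adjusted p = 0.988, and -3.18 (p = 0.00110) without the 2). CILP (ENSSSCG00000004928), a cartilage matrix protein also made by cardiac fibroblasts, was at 7.46, 6.74, 8.61 and 2.73 and then between 3.03 and 6.37 (median 5.48) (log2 fold change -2.11, SE 0.68, p = 0.00414, adjusted p = 0.988, and -2.56 (p = 0.000675) without the 2). Its Day 2 library of swine 5385 was the lowest of all 11. The higher 2, named after their values were seen, were ELN, the elastic fibre protein elastin, at 3.23 (p = 0.0293), and CCN2, connective tissue growth factor, at 2.35 (p = 0.0408). They were 0.32 (p = 0.771) and 1.15 (p = 0.267) without the 2 libraries. FN1, fibronectin, was -0.65 (p = 0.492), and -1.52 (p = 0.125) without the 2 libraries.

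The 2 main fibrillar collagens had no difference that exceeded the spread between biopsies. COL1A1 (ENSSSCG00000036135) was at 13.38, 12.96, 12.31 and 13.25 log2 CPM at Day 2 and between 9.81 and 15.23 (median 11.38) at Day 14, with a log2 fold change of 0.032 (SE 1.12, adjusted p = 1.000). COL3A1 (ENSSSCG00000016034) was at 13.51, 12.80, 12.43 and 12.01 and then between 10.44 and 14.64 (median 11.84), with 0.034 (SE 0.90). In both genes the highest Day 14 value came from the library of swine 1644 that is low in cardiomyocyte genes. The log2 fold changes without the 2 libraries were -1.15 (p = 0.313) and -0.93 (p = 0.308). Of 19 interstitial collagens 0 had a lower mean and 1 a higher mean with p under 0.05 (2.17% and 0.848% of all genes), and the list median was 0.032, or -0.67 without the 2. The 10 tested markers of activated fibroblasts had a median of -0.073, with 2 lower below p 0.05 (2.17% of all genes). Without the 2 libraries the median was -0.84, with 4 lower below p 0.05 (1.13% of all genes). POSTN and TIMP1 are listed at 0 in all 11 libraries, and whether reads of these genes were counted under another identifier was not tested.

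The genes that follow were named for a small p, for their level or beforehand, and do not form a list. FAM111A (ENSSSCG00000033703), a protease that acts at replication forks, was -1.26 (p = 0.00692), and -1.87 (p = 7.09e-05) without the 2 libraries. PLAU, the urokinase protease, was -1.36 (p = 0.0338) and -1.88 (p = 0.00501). FAP, a surface protease of activated fibroblasts, was -0.79 (p = 0.0666) and -0.95 (p = 0.0372). The chemokine CXCL14 was -3.16 (p = 0.0112) and -3.97 (p = 0.00585). S100A11, a calcium-binding protein, was at 4.46, 3.80, 4.08 and 5.51 log2 CPM at Day 2 and between 2.11 and 3.73 (median 2.99) at Day 14, without overlap (log2 fold change -1.68, SE 0.40, p = 0.000235, adjusted p = 0.383, and -1.37 (p = 0.00155) without the 2 libraries). TMSB10, which binds actin monomers, was -1.29 (p = 0.000318), and ARHGDIB, which is abundant in leukocytes, was -1.15 (p = 0.000476), both without overlap between the groups. Without the 2 libraries they were -0.91 (p = 0.00714) and -1.02 (p = 0.00373).

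**Figure D3:**
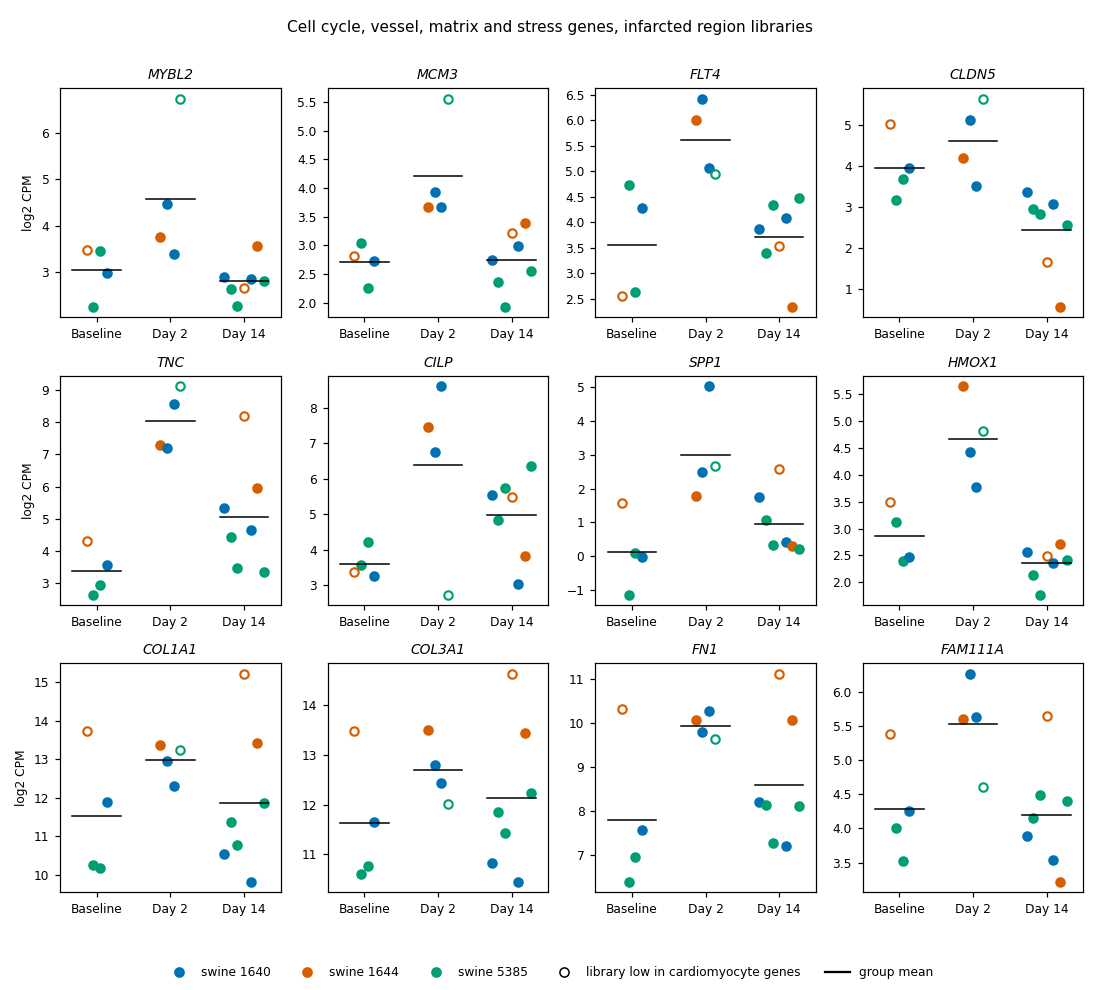
Log2 CPM of 12 genes of cell division, vessels, matrix and stress in each baseline library labelled apical and each infarcted-region library of Day 2 and Day 14. Points are coloured by swine, with open points for libraries low in cardiomyocyte genes and lines for group means. HMOX1, MCM3, FLT4 and CLDN5 have no overlap between Day 2 and Day 14, while COL1A1 and COL3A1 overlap over most of their range.

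Macrophage and monocyte markers had lower means in 17 of 18 tested genes (40.9% of all genes), with a median of -0.77 and, without the 2 libraries, of -0.79. Only LAPTM5 (-1.13 (p = 0.0131)), the haemoglobin scavenger receptor CD163 (-1.22 (p = 0.0336)) and the scavenger receptor MSR1 (-0.94 (p = 0.0398)) were below p 0.05 (2.17% of all genes). None was without the 2 libraries, when they were -0.77 (p = 0.111), -1.02 (p = 0.105) and -0.64 (p = 0.190). CD68 was -0.58 (p = 0.197), and -0.57 (p = 0.247) without them. The summed markers were 354 to 589 CPM at Day 2 and 202.3 to 498 CPM at Day 14, which overlap. S100A8, a neutrophil marker, was too low to be tested, and the summed neutrophil markers were at most 25.0 CPM at Day 2 and 22.6 CPM at Day 14.

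HMOX1 (ENSSSCG00000039745), haem oxygenase, which breaks down haem and is induced by it, was chosen after its values were seen. It was at 5.65, 4.42, 3.77 and 4.82 log2 CPM at Day 2 and between 1.77 and 2.71 (median 2.42) at Day 14. The groups did not overlap (log2 fold change -2.50, SE 0.66, p = 0.000716, adjusted p = 0.597), and without the 2 libraries the log2 fold change was -2.50 (p = 0.00193). Of the glycolysis and hypoxia genes, LDHA, which forms lactate, was -1.03 (p = 0.0115) and ENO1 -0.99 (p = 0.0184), the only 2 of 22 below p 0.05 (2.17% of all genes were, with a lower mean). They were -0.84 (p = 0.0435) and -0.80 (p = 0.0442) without the 2 libraries.

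Genes of protein synthesis and folding differed little but mostly in 1 direction. All 25 tested cytosolic ribosomal protein genes had a lower mean at Day 14 (40.9% of all genes), 7 with an unadjusted p under 0.05 (2.17%), and the median was -0.51. With the swine as a block 14 were below p 0.05 (3.30% of all genes), and without the 2 libraries 6 were (1.13%). Without the Day 2 library of swine 1644, 1 was. RPLP1 was -0.77 (p = 0.0210) and RPL3 -0.94 (p = 0.0286), and -0.86 (p = 0.0109) and -0.76 (p = 0.0752) without the 2. These genes have many processed pseudogenes, among which counting can split reads. Of 19 genes of endoplasmic reticulum chaperones and the unfolded protein response, 17 had a lower mean (40.9% of all genes) and 5 an unadjusted p under 0.05 (2.17%), with a median of -0.61. The 5 became 10 with the swine as a block (3.30% of all genes) and 3 without the 2 libraries (1.13%). They became 2 without the Day 2 library of swine 5385 alone (0.848%). CRELD2 was -1.10 (p = 0.00988) and XBP1, the transcription factor of that response, -0.81 (p = 0.0117), and without the 2 libraries they were -1.01 (p = 0.0252) and -0.88 (p = 0.00521).

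Below p 0.05, genes with a higher mean at Day 14 were fewer than those with a lower one, although most genes tested had a higher mean. Apart from the clock, the smallest p belonged to CYP27A1, a sterol hydroxylase of mitochondria (1.58 (p = 0.00313)), CCDC136 (1.30 (p = 0.00378)), the basement membrane ligand NPNT (1.19 (p = 0.00483)) and its receptor subunit ITGA8 (1.96 (p = 0.00730)). NPNT was at 2.65, 3.52, 3.28 and 2.92 log2 CPM at Day 2 and between 3.81 and 5.20 (median 4.05) at Day 14, and ITGA8 at 3.12, 3.44, 3.26 and 3.60 and between 3.85 and 6.60 (median 4.58). Neither overlapped between the groups, and without the 2 libraries they were 1.18 (p = 0.0193) and 1.81 (p = 0.0337). Others by rank were COL24A1 (3.19 (p = 0.00613)), PRDM11 (0.56 (p = 0.00644)), the calcium buffer CASQ1 (2.50 (p = 0.00737)) and the transcription factor FOXO3 (0.90 (p = 0.00841)). COL24A1 was at 9.47 log2 CPM in the Day 14 library low in cardiomyocyte genes, and was 1.03 (p = 0.182) without the 2. CYP27A1 was then 1.41 (p = 0.0150), CCDC136 0.83 (p = 0.0579), PRDM11 0.42 (p = 0.0282), CASQ1 2.35 (p = 0.0228) and FOXO3 0.57 (p = 0.0797).

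Immediate-early genes, which are induced within minutes of a stimulus, varied widely between Day 14 biopsies. Of 20 tested, 18 had a higher mean (59.1% of all genes), 6 with an unadjusted p under 0.05 (0.848%), and the median was 1.29. FOSB, a subunit of the AP-1 factor, was at 1.97, 0.52, -0.049 and 3.23 log2 CPM at Day 2 and between -0.95 and 8.61 (median 2.94) at Day 14 (log2 fold change 4.76, SE 1.77, p = 0.0115, adjusted p = 1.000). ATF3, a stress-induced factor of the same family, was at 3.20, 2.84, 3.60 and 4.03 and between 3.22 and 6.90 (median 5.87) (log2 fold change 2.65, SE 0.99, p = 0.0118, adjusted p = 1.000), and the nuclear receptor NR4A3 was 3.11 (p = 0.0213). No member of the list separated the groups, and without the 2 libraries the median was 0.25 and 2 genes were below p 0.05, with 7 of 20 means lower. FOSB, ATF3 and NR4A3 were then 4.59 (p = 0.0272), 2.83 (p = 0.0246) and 1.65 (p = 0.204).

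Most nuclear genes of the sarcomere and of energy metabolism had higher means, none below p 0.05. The median was 0.50 over 21 sarcomere genes, 0.39 over 27 of fatty acid oxidation, 0.30 over 22 of the tricarboxylic acid cycle and 0.20 over 34 nuclear genes of oxidative phosphorylation, and 0.31, 0.29, 0.17 and 0.10 without the 2 libraries. The 13 mitochondrially encoded genes all had a lower mean (median -0.30), and 9 of 13 did without the 2 libraries (median -0.12). Of 12 stress markers of cardiomyocytes 7 had a lower mean (median -0.18, and -0.38 without the 2). None of the genes of these 6 lists was below p 0.05. MYH6 was at 15.51, 14.30, 15.09 and 6.77 log2 CPM at Day 2 and between 9.41 and 15.92 (median 14.80) at Day 14, where the lowest value of each group came from a library low in cardiomyocyte genes. Its log2 fold change was 0.50 (SE 1.29), that of TNNT2 0.50 (SE 1.21) and that of NPPB, the natriuretic peptide BNP, 0.10 (SE 1.46). These were 0.31 (p = 0.811), 0.31 (p = 0.802) and -0.017 (p = 0.992) without the 2 libraries.

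**Figure D4:**
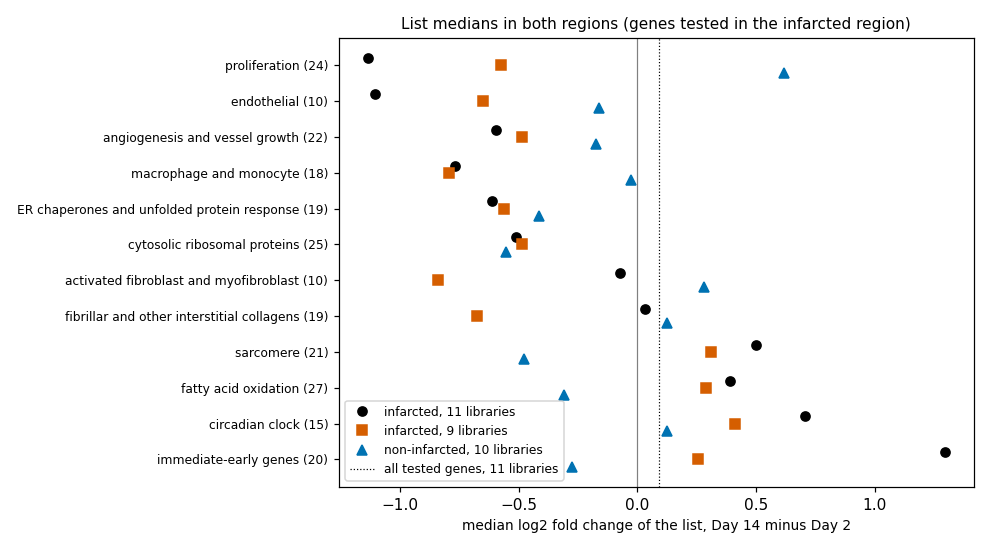
Median log2 fold change (Day 14 minus Day 2) of 12 gene lists in the infarcted region with all 11 libraries (circles), without the 2 libraries low in cardiomyocyte genes (squares) and in the non-infarcted region (triangles). The number of genes tested follows each name. Proliferation has a median of -1.14 in the infarcted region against 0.62 outside it, and collagens go from 0.032 to -0.67 when the 2 libraries are left out. Medians of the non-infarcted region are given with all of its libraries only.

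The non-infarcted, lateral region of the same animals was sampled at the same times, with 4 libraries at Day 2 and 6 at Day 14. There no gene passed the adjusted threshold in edgeR, and 1.01% of genes had a lower and 5.82% a higher mean at an unadjusted p under 0.05. The difference between the regions (the infarcted minus the non-infarcted log2 fold change) passed for 0 of 18097 genes in edgeR, with 491 (2.71%) below p 0.05, and DESeq2 called 1. In edgeR no gene is therefore shown to be particular to the infarcted region.

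Among the genes described, UHRF1 had a log2 fold change of 0.75 (SE 0.53, p = 0.164) in the non-infarcted region and a difference between the regions of -2.96 (SE 0.73, p = 0.000235). The corresponding values were 1.24 (SE 0.62, p = 0.0518) and -3.12 (SE 0.85, p = 0.000672) for FLT4, 1.10 (SE 0.60, p = 0.0733) and -3.16 (SE 0.82, p = 0.000405) for CCL21, and 1.16 (SE 0.80, p = 0.153) and -3.30 (SE 1.09, p = 0.00440) for CILP. Of the 24 proliferation genes, 14 had a difference with p under 0.05 and a lower change in the infarcted region, against 1.86% of all genes, but none passed the adjusted threshold. That count is given with all libraries only. Without the infarcted-region Day 2 library low in cardiomyocyte genes, 1 of the 24 was below p 0.05 in the infarcted region, against 15 with it. The share of all genes below p 0.05 for the difference between regions then went from 2.71% to 1.02%. It was 1.64% and 1.77% without non-infarcted Day 14 replicates 2 and 3, and 1.65% without non-infarcted Day 2 replicate 4. The highest share with 1 library left out was 8.07%, without non-infarcted Day 2 replicate 5. A CPM of 1 was reached by 22076 and 20949 genes in non-infarcted Day 14 replicates 2 and 3. It was reached by 13975 to 15889 in the other replicates of that group. UHRF1 (4.61 and 4.26 log2 CPM) and CCL21 (5.51 and 5.55) were highest of the group in these 2. FLT4 was highest in replicate 3 (5.24) and CILP in replicate 1 (7.35). The part of these 2 libraries in the non-infarcted list medians was not tested. Other genes had the same sign in both regions. SPP1 was -3.84 (SE 1.04, p = 0.000672) in the non-infarcted region, HMOX1 -1.56 (SE 0.72, p = 0.0362), BMAL1 -0.79 (SE 0.33, p = 0.0215) and PER2 1.14 (SE 0.49, p = 0.0250), and cytosolic ribosomal protein genes had a median of -0.55.

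**Figure D5:**
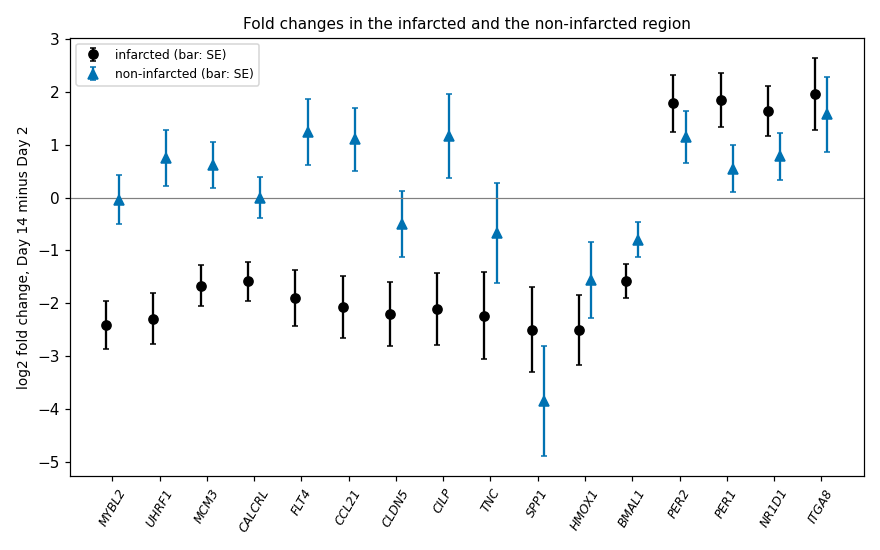
Log2 fold change (Day 14 minus Day 2) of 16 genes in the infarcted region (circles) and the non-infarcted region (triangles), with bars of 1 SE, each from the edgeR fit of its own set of libraries. UHRF1, MCM3, FLT4, CCL21 and CILP are below 0 in the infarct and above 0 outside it, while SPP1, HMOX1 and BMAL1 are below 0 and PER2 and NR1D1 above 0 in both.

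Each time was also set beside the 4 baseline libraries labelled apical, which both comparisons share. They predate the infarct and were not aimed at a region, so they are not matched to the infarcted region. Most of the genes were named for the difference between Day 2 and Day 14, so these values are a description with no test. The fitted Day 14 level lay nearer to baseline than the Day 2 level in 50 of 65 named genes, against 53.9% of all genes tested. BMAL1 differed from baseline by 1.20 at Day 2 and by -0.37 at Day 14 on the log2 scale. PER1 differed by -1.31 and 0.53, MYBL2 by 2.14 and -0.27, and UHRF1 by 2.66 and 0.37. TNC differed by 4.76 and 2.53, CILP by 3.79 and 1.68, and SPP1 by 3.31 and 0.81. FLT4 differed by 1.90 and 0.0014, and HMOX1 by 1.92 and -0.58. Other genes lay farther from baseline at Day 14 than at Day 2. CLDN5 differed by 0.70 and -1.51, PECAM1 by 0.44 and -0.96, ITGA8 by 0.12 and 2.09, COL24A1 by 0.49 and 3.68, FOSB by 0.21 and 4.98 and ATF3 by -0.61 and 2.04.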

How the data were processed

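Total RNA of micro-EMB and blood from 3 swine was sequenced as 85 libraries. STAR alignments to Sscrofa11.1 were counted per Ensembl gene by the authors with featureCounts, on either strand per the file headers, and deposited as raw counts, so overlapping antisense genes cannot be told apart. Molecular identifiers were not used here. Groups were taken from the sample labels. A gene was tested where 20% or more of the fitted libraries reached a CPM of 1 (17929 of 31907). The quasi-likelihood test of edgeR 4.0.16 (R 4.3.3, TMM factors) was fitted to 29 infarcted-region libraries, 11 of which form the comparison, with no term other than timepoint. SE were computed from the fold change and the F statistic. Differences between regions came from a fit of 45 micro-EMB libraries. Adjusted p-values follow Benjamini and Hochberg over all genes tested. Log2 CPM used a prior count of 2 and list medians are over fitted fold changes. The scripts were tested on simulated data.

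Symbols were available for 15029 identifiers, from a gene name table, and MYH7, NPPA and MKI67 had no identifier in it. Genes named were the 12 of smallest p in each direction, the 3 of smallest p and 2 of highest level in each list, and a set of fixed genes, of which those with a bearing on the comparison are printed, and some genes are not reported here. The members, lists and genes were chosen with earlier results of these data known. Windows before gene starts were read from the RefSeq copy of Sscrofa11.1, and 61 of 65 genes had a position there. Swine numbers pair the samples, as a number stands for 1 animal. Mean correlations of deviations from the group means were 0.105 for libraries of the same swine and -0.0936 for others in the 29 libraries. No 2 libraries of a group agreed within counting noise. Alternatives were DESeq2 1.42.0, limma 3.58.1 (voom), other scalings, filters and sets of libraries, a swine block and leaving out each library.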

Additional observations from a re-analysis of the deposited data

Results flagged for a closer look

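In groups of 4 and 7 libraries, the extreme library was compared with its nearest neighbour by Dixon's criterion in 130 pairs of gene and group, and 16 were flagged, where chance flags about 1 in 20. All values are log2 CPM, and no cause was tested. The Day 2 library of swine 5385, which is low in cardiomyocyte genes, was the highest of its group in ENSSSCG00000036779 at 10.42 (nearest 5.27), UHRF1 at 6.92 (nearest 4.61), MCM3 at 5.56 (nearest 3.93) and POLE at 6.45 (nearest 4.08). The Day 2 library of swine 5385, which is low in cardiomyocyte genes, was the lowest of its group in MYH6 at 6.77 (nearest 14.30) and TNNT2 at 5.08 (nearest 11.57). The Day 14 library of swine 1644 (replicate 8) was the lowest of its group in ARHGDIB at 2.38 (nearest 3.39). The Day 14 library of swine 5385 (replicate 9) was the highest of its group in NPNT at 5.20 (nearest 4.39). The Day 14 library of swine 1644 that is low in cardiomyocyte genes was the highest of its group in COL24A1 at 9.47 (nearest 5.45), PLAU at 4.32 (nearest 2.74) and CRELD2 at 3.16 (nearest 2.55). The Day 14 library of swine 1644 that is low in cardiomyocyte genes was the lowest of its group in NR1D2 at 5.19 (nearest 6.11), MYH6 at 9.41 (nearest 14.47) and TNNT2 at 6.90 (nearest 11.79). The Day 14 library of swine 5385 (replicate 2) was the lowest of its group in ATF3 at 3.22 (nearest 5.37). The Day 2 library of swine 1644 (replicate 1) was the highest of its group in RPLP1 at 9.06 (nearest 7.90).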

How the results depend on the processing

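The directions of all named genes other than CD68, COL1A1, COL3A1, FN1, MYH6, NPPB and TNNT2 held in every alternative run. At most 3 animals, a few biopsies each and a biological coefficient of variation of 0.664 limit what could be called. The block by swine, and leaving out the 2 libraries low in cardiomyocyte genes at all timepoints or only at Day 2 and Day 14, changed the counts given here. DESeq2 with the 2 left out, and leaving out every low library, were added after the data were seen. The count of genes called lower at Day 14 went from 1 to 0 with no CPM filter, a CPM of 1 in 4 libraries, voom, the 11 libraries alone, the 2 libraries left out, all 41 infarcted-region libraries, the swine block, sums per swine with the block, no mitochondrial and ribosomal protein genes, DESeq2 with the 2 left out and every low library left out, 13 with DESeq2, and 15 with weighted voom. The share of genes with a higher mean and p under 0.05 went from 0.848% to 1.499% with no CPM filter, 1.71% with DESeq2, 3.94% with weighted voom, 1.96% with the 11 libraries alone, 0.328% with the 2 libraries left out, 1.79% with all 41 infarcted-region libraries, and 1.51% with sums per swine with the block. The count of immediate-early genes below p 0.05 went from 6 to 10 with DESeq2, 1 with voom and weighted voom, 2 with the 2 libraries left out, DESeq2 with the 2 left out and every low library left out, and 13 with all 41 infarcted-region libraries. The count of ribosomal protein genes below p 0.05 went from 7 to 4 with voom, 0 with all 41 infarcted-region libraries, 14 with the swine block, and 11 with sums per swine with the block. The count of genes called higher went from 0 to 2 with weighted voom. The share of genes with a lower mean and p under 0.05 went from 2.17% to 5.10% with weighted voom, 3.63% with the 11 libraries alone, 1.13% with the 2 libraries left out, 0.422% with all 41 infarcted-region libraries, 3.30% with the swine block, and 1.24% with DESeq2 with the 2 left out. The count of chaperone genes below p 0.05 went from 5 to 10 with weighted voom and the swine block, 8 with the 11 libraries alone, 3 with the 2 libraries left out and every low library left out, and 0 with all 41 infarcted-region libraries. The count of proliferation genes below p 0.05 went from 15 to 1 with the 2 libraries left out and DESeq2 with the 2 left out, 5 with all 41 infarcted-region libraries, and 2 with every low library left out. The count of endothelial genes below p 0.05 went from 6 to 1 with the 2 libraries left out, 0 with all 41 infarcted-region libraries, 2 with DESeq2 with the 2 left out, and 3 with every low library left out. The count of angiogenesis genes below p 0.05 went from 7 to 2 with the 2 libraries left out and DESeq2 with the 2 left out, 1 with all 41 infarcted-region libraries, and 4 with every low library left out. The median of the ribosomal protein genes went from -0.51 to 0.19 with all 41 infarcted-region libraries. The median of the chaperone genes went from -0.61 to 0.092 with all 41 infarcted-region libraries. The median of the circadian clock genes went from 0.70 to 1.24 with all 41 infarcted-region libraries. The median of the proliferation genes went from -1.14 to -0.55 with DESeq2 with the 2 left out. The count of genes called for the difference between regions went from 0 to 1 with DESeq2. The share of genes below p 0.05 for that difference went from 2.71% to 4.97% with DESeq2 and 5.14% with the swine block. Leaving out 1 library at a time gave ranges of 0 to 2 for genes called lower at Day 14, 2 to 7 for immediate-early genes below p 0.05, 1 to 11 for ribosomal protein genes below p 0.05, 2 to 9 for chaperone genes below p 0.05, 2 to 8 for angiogenesis genes below p 0.05, 0.848% to 2.74% for genes with a lower mean and p under 0.05, 0.388% to 1.11% for genes with a higher mean and p under 0.05, 1 to 16 for proliferation genes below p 0.05, 2 to 6 for endothelial genes below p 0.05, -0.95 to 0.34 for activated fibroblast and myofibroblast genes (median) and 1.02% to 8.07% for genes below p 0.05 for that difference. The log2 fold change had the other sign in these cases, none of them called. That of COL1A1 was -0.065 with library totals only, -0.0032 with no CPM filter, -1.06 with voom, -1.35 with weighted voom, -1.15 with the 2 libraries left out and every low library left out, -1.03 with the swine block, -0.92 with sums per swine with the block, and -1.12 with DESeq2 with the 2 left out. That of COL3A1 was -0.053 with library totals only, -0.0071 with no CPM filter, -0.48 with voom, -0.79 with weighted voom, -0.93 with the 2 libraries left out and every low library left out, -0.49 with the swine block, -0.35 with sums per swine with the block, and -0.91 with DESeq2 with the 2 left out. That of NPPB was -0.19 with weighted voom, -0.017 with the 2 libraries left out, and -0.020 with every low library left out. That of FN1 was 0.10 with all 41 infarcted-region libraries. That of CD68 was 0.10 with all 41 infarcted-region libraries. That of MYH6 was -0.32 with the swine block and -0.27 with sums per swine with the block. That of TNNT2 was -0.12 with the swine block and -0.035 with sums per swine with the block. With 1 library left out the sign was the other one in some cases for COL1A1 (range -1.20 to 0.21), COL3A1 (range -0.73 to 0.35) and NPPB (range -0.39 to 1.15). The lowest leave-one-out counts for proliferation, endothelial, angiogenesis and chaperone genes came without the Day 2 library of swine 5385, that of ribosomal protein genes without the Day 2 library of swine 1644, and the lowest activated fibroblast median without the Day 14 library of swine 1644 low in cardiomyocyte genes. The 41 libraries add those with an even count profile, and also baseline replicate 4 and 0-1 h replicate 6. These held 74.5% and 63.9% of the counts in their 10 most counted genes. The cause of these shifts was not tested. Every paired fit of the animals used the swine number, and the block changed no call other than those given here.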

Other observations

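Transcripts of the haemoglobin gene HBB in micro-EMB differed between the animals, over all times together. HBB, the beta chain, was at 655 to 5895 CPM in the 16 micro-EMB libraries of swine 5385 that passed the limits on counts. It was at 13.9 to 53.5 CPM in the 15 of swine 1640 and at 6.70 to 157.9 CPM in the 14 of swine 1644. In the blood libraries the range was 5453 to 10992 CPM for swine 5385, 4352 to 13813 CPM for swine 1640 and 3357 to 4610 CPM for swine 1644, each over 4 libraries.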
